A study of Mus musculus with 8 samples.

Results

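The substantia nigra of mice given AAV-α-synuclein together with α-ketoglutarate (AKG) was compared with that of mice given AKG alone. This asks what the vector added where both groups received AKG. The comparison takes 4 of the 8 libraries of the series by their labels, 2 of the combined group (AAV-α-synuclein+AKG) and 2 of the AKG group. AAV is adeno-associated virus, a vehicle for gene delivery, and AKG was part of the diet according to the series title. All mice were male C57BL/6. The remaining 4 libraries are 2 wild-type controls without either treatment and 2 from mice with AAV-α-synuclein and no AKG (the vector group), and they are used below only where named. Both compared groups carry AKG, so a difference between them is no measure of AKG itself. The labels name no vector for the AKG group and do not say whether it received an empty one, so α-synuclein, the virus and the injection cannot be told apart. The sources used here give neither the age of the mice, the dose of AKG, the time after injection nor the serotype, promoter and species of the α-synuclein vector. Nor do the labels say that the libraries of a group came from separate animals, so a p-value here measures the spread between libraries, and that spread may be technical.

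α-Synuclein is a presynaptic protein that binds synaptic vesicles and forms the aggregates found in Parkinson's disease. Dopamine neurons of the substantia nigra, the cells lost in that disease, make dopamine with tyrosine hydroxylase (Th) and aromatic amino acid decarboxylase (Ddc), load it into vesicles with Slc18a2 and take it back up with Slc6a3, the dopamine transporter. AKG is an intermediate of the tricarboxylic acid (TCA) cycle and the co-substrate of dioxygenases that hydroxylate proline residues and demethylate DNA and histones.

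RNA levels are given in FPKM (fragments per kilobase of gene, scaled to library size), and differences as combined minus AKG on a log2(FPKM + 1) scale, with the standard error of the limma fit to the 4 libraries. That scale understates the change of genes with low levels. The AKG libraries held 18323671 and 16931263 reads, recovered from the deposited values, and the combined libraries 19125423 and 18176070. The AKG libraries differed from each other with a chi-square of 10.9 for each degree of freedom and the combined libraries with 28.7, both more than counting error gives. Combined library 1 correlated with AKG library 1 (Spearman's rho across genes 0.986) and combined library 2 with AKG library 2 (0.984) more closely than the combined libraries did with each other (0.972). So did the AKG and combined libraries of unlike number, at 0.978 in either pair. Combined library 1 was closest to vector library 1 (0.987).

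Dopamine neuron markers were measured in every library, while the serotonin neuron markers Tph2 and Slc6a4 stayed at or below 0.161 FPKM in the 4 libraries compared. Markers of tissue around the nigra were present too. Hcrt, the orexin precursor of the lateral hypothalamus, was at 150 and 166 FPKM in the AKG libraries and at 116 and 163 in the combined libraries. In bulk tissue, fewer cells of a type and less RNA per cell cannot be told apart.

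No gene passed the threshold. Of 13716 genes whose mean over the 8 libraries reached 1 FPKM, 0% had an adjusted p under 0.05 (limma with Benjamini-Hochberg adjustment). At an unadjusted p under 0.05 there were 255 genes, or 1.86% (1.08% higher and 0.78% lower in the combined libraries), fewer than the 686 that this threshold gives with no effect. The smallest adjusted p was 0.201, for Gm10705, a predicted gene named here after its values were seen (5.18 and 6.15 FPKM with AKG, 21.2 and 19.8 in the combined libraries). All other genes had an adjusted p of 0.9999 in that fit, so the genes below are described by their levels. Both combined libraries lay above both AKG libraries in 1548 genes, or 11.3%, and below both in 1621, or 11.8%, so that the groups did not overlap in 23.1% of genes. The median difference over all genes was -0.0011, the middle 50% of genes lay between -0.07 and 0.07, and 42 genes differed by more than 1 log2 unit in either direction. The mean was higher in the combined group in 6794 genes, or 49.5%. Counts of gene groups below are to be read against these shares.

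Of 22 tested dopamine neuron genes, 5 were higher in both combined libraries than in either AKG library. The median difference over all 22 was 0.04. Slc6a3 (chromosome 13, 73536747 to 73578672, GRCm38) was at 0.801 and 0.615 FPKM in the AKG libraries, from 51 and 36 reads, and at 4.99 and 11.9 FPKM in the combined libraries, from 335 and 738 reads. Its difference of 2.37 ± 0.36 was the largest among the dopamine neuron genes. The groups did not overlap, although combined library 2 held more than combined library 1. Th (chromosome 7, 142892752 to 142931128) was at 10.7 and 10.4 FPKM with AKG alone and at 14.6 and 16.6 FPKM in the combined libraries, a difference of 0.52 ± 0.10. Ddc (chromosome 11, 11814101 to 11898144) was at 8.81 and 6.91 FPKM and at 11.5 FPKM in both combined libraries, a difference of 0.51 ± 0.13. Both enzymes of dopamine synthesis were thus higher in each combined library than in either AKG library. Slc18a2 (chromosome 19, 59260878 to 59296012), the vesicular monoamine transporter, was at 5.74 and 4.41 FPKM against 7.40 and 6.35 FPKM, a difference of 0.38 ± 0.15. Slc10a4 (chromosome 5, 73006883 to 73012955), a vesicle protein of monoamine and cholinergic neurons, was at 1.06 and 0.981 FPKM against 1.86 and 4.86 FPKM, a difference of 1.02 ± 0.34, with combined library 2 again the higher. Leaving out each library in turn gave 1.81 to 2.92 for Slc6a3, 0.43 to 0.61 for Th, 0.35 to 0.66 for Ddc, 0.22 to 0.54 for Slc18a2 and 0.50 to 1.54 for Slc10a4. The unadjusted limma p was 9.16e-04 for Slc6a3, 0.00353 for Th, 0.0102 for Ddc, 0.0272 for Slc10a4 and 0.0466 for Slc18a2.

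The sequences upstream of the 3 genes with the smallest p in this set are shown because these genes lay apart together. They are the 250 bases before an annotated start in RefSeq (GRCm38.p6), Th at chr7:142899996-142900245 on the minus strand, Ddc at chr11:11898145-11898394 on the minus strand, and Slc6a3 at chr13:73536497-73536746 on the plus strand, each written in the direction of transcription. Capitals mark 3 motifs searched on both strands, the cAMP response element (TGACGTCA), the NBRE bound by orphan receptors of the Nr4a family (AAAGGTCA) and the GC box (GGGCGG).
Th: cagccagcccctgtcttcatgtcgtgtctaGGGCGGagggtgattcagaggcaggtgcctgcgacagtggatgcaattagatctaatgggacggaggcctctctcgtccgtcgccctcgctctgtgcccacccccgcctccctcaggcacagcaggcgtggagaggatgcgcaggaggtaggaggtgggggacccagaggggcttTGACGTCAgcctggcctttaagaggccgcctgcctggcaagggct
Ddc: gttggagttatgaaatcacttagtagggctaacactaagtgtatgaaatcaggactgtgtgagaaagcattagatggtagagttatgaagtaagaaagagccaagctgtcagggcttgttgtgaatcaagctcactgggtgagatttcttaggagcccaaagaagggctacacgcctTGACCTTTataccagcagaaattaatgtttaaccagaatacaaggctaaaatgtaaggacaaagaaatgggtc
Slc6a3: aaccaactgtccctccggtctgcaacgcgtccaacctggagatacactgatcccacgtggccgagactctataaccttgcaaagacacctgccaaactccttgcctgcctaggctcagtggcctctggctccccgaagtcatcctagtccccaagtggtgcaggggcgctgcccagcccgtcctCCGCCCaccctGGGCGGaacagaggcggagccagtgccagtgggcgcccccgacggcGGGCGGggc
The Th promoter held 1 cAMP response element, 45 to 38 bases before the start, and 1 GC box. The Ddc window shown held 1 NBRE on the opposite strand, 73 to 66 bases before the start. Another Ddc start in RefSeq, whose window is chr11:11890409-11890658 and is not printed, held 0 of the 3 motifs. The Slc6a3 promoter held 3 GC boxes and neither of the other motifs. Of 32851 mouse promoter windows of this length, 1.55% held the cAMP response element, 1.34% the NBRE and 32.7% the GC box. No motif was shared by all 3 windows.

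The remaining tested dopamine neuron genes overlapped between the groups. Of 28 genes on the list 22 were tested, and the 5 named above were the ones whose groups did not overlap upward, with 0 downward. The list's median difference was 0.04, and 15 of 22 means were higher in the combined group. Nr4a2, a transcription factor that maintains dopamine neurons, was at 3.46 and 8.60 FPKM with AKG and at 6.19 and 3.71 in the combined libraries (-0.17 ± 0.40). Of the receptors, Drd2 was at 7.07 and 7.49 FPKM against 6.10 and 9.88, and Ret, the receptor of GDNF-family factors, at 7.95 and 8.89 FPKM against 9.21 and 8.45. Chrna6, a nicotinic receptor subunit of dopamine neurons, was at 0.766 and 1.58 FPKM against 1.47 and 2.21, with overlapping groups. Among the 6 members under 1 FPKM on average was Gch1, which makes the cofactor of Th, at 0.486 and 0.434 FPKM with AKG and at 0.683 and 0.653 in the combined libraries. En1 also lay higher in both combined libraries, while Pitx3, Foxa2, Lmx1b and Kcnj6 overlapped. The enzymes that break dopamine down mostly overlapped between the groups. Maob was at 36.2 and 39.6 FPKM against 32.8 and 31.5, the 1 of 5 whose groups did not overlap.

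Set beside the other groups, the AKG libraries were the low ones. In Slc6a3, Th, Ddc, Slc10a4 and Slc18a2 both AKG libraries lay below all 6 others. These 5 genes were picked for lying above AKG in both combined libraries, and of the 1548 genes with that order 348, or 22.5%, had AKG as the lowest group, so the count is a description only. Th was at 38.8 FPKM in both control libraries and at 12.6 and 16.1 in the vector libraries. For Th the combined libraries lay in the vector group's range or just above it, and far under control. Slc6a3 was at 24.1 and 28.5 FPKM in control and at 1.43 and 3.87 in the vector group. Without AKG the vector's difference from control was -1.38 in Th, -2.99 in Slc6a3, -0.89 in Ddc and -0.46 in Slc18a2, each opposite in sign to its difference with AKG. The difference between those effects, fitted to all 8 libraries, was 1.90 ± 0.19 in Th, 5.35 ± 0.59 in Slc6a3, 1.40 ± 0.24 in Ddc and 0.84 ± 0.20 in Slc18a2. None passed (limma adjusted p = 0.276 for Th, 0.283 for Slc6a3 and 0.537 for Ddc and Slc18a2). The contrast contains the combined minus AKG difference for which these genes were picked. That favours a large positive value, so its size in these genes is a description only. Over all genes this test called 0%, with 7.28% at an unadjusted p under 0.05. Its calls depended on control library 1, whose mean Spearman correlation with the others was 0.926 against 0.971 to 0.975 elsewhere. With 1 control library left, the fit assumed that it varied like the other groups, so calls of single genes are not given.

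**Figure D1:**
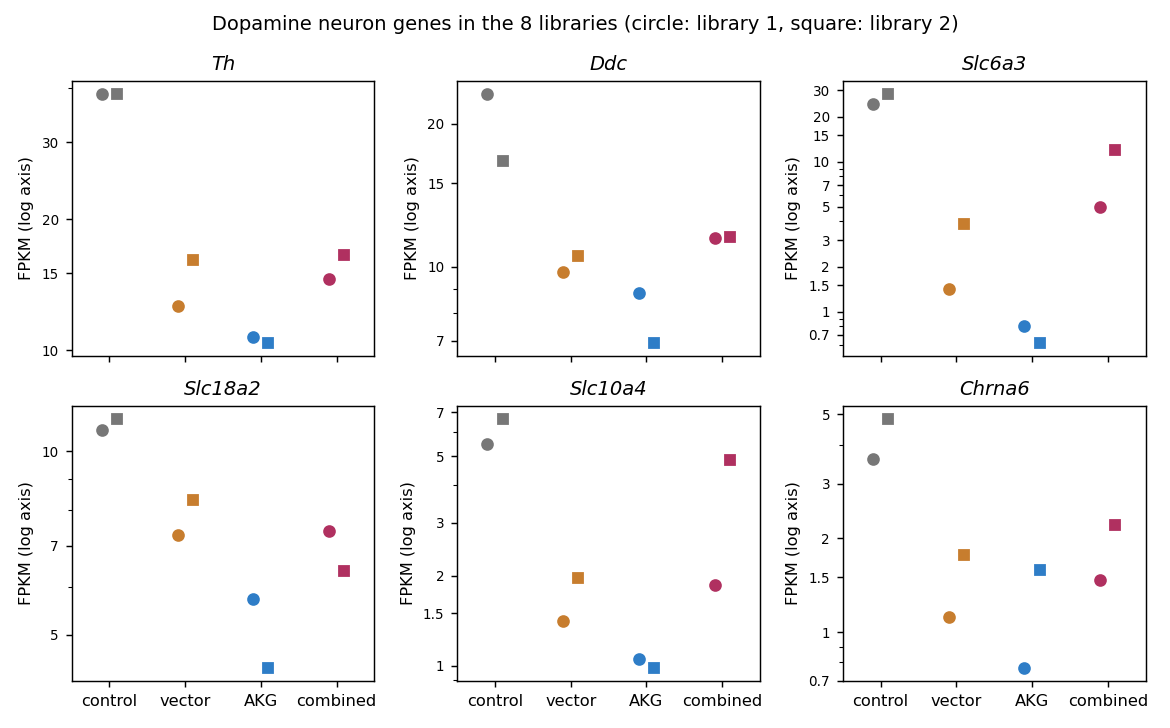
Levels in FPKM (vertical log axis) of 6 dopamine neuron genes in the 8 libraries, by group on the horizontal axis, with a circle for library 1 and a square for library 2. In Th, Ddc, Slc6a3, Slc18a2 and Slc10a4 both AKG libraries are the lowest of the 8 and both combined libraries lie above them, while in Chrna6 AKG and combined libraries overlap.

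Over all genes the 2 vector effects were also compared directly. The vector comparison without AKG shares no library with the one described here, and 41.8% of the 13716 genes differed in the same direction in both (Pearson's r across genes -0.12, as a description). Among the 20 genes with the smallest unadjusted p, 10 in each direction, 11 had the same sign.

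Among the 10 higher genes of that set besides Th and Slc6a3, the ones with ample reads were Hpca, Gadd45g, Mfsd2a and Stac2. Hpca (chromosome 4, 129111570 to 129122036), the neuronal calcium sensor hippocalcin, was at 43.7 and 48.2 FPKM with AKG and at 70.3 and 64.5 FPKM in the combined libraries (0.54 ± 0.11). Gadd45g (chromosome 13, 51846678 to 51848468), a stress-induced growth arrest gene, was at 13.05 and 12.8 FPKM against 17.7 and 19.1 (0.48 ± 0.09). Mfsd2a (chromosome 4, 122946850 to 122961188), the lysophospholipid transporter that carries docosahexaenoic acid across the blood-brain barrier, was at 11.1 and 12.1 FPKM against 15.9 and 16.6 (0.46 ± 0.10). All 3 had tight pairs of libraries and a gap between the groups wider than either pair, which picking by a small p favours. Stac2, an adaptor of voltage-gated calcium channels, was at 6.41 FPKM in both AKG libraries and at 8.56 and 9.90 in the combined libraries (0.46 ± 0.11).

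The other 4 higher genes rested on few reads or on uncertain assignment. Srp54b, a signal recognition particle subunit, was at 0.373 and 0.746 FPKM against 2.99 and 2.40 (1.25 ± 0.18). It has close copies on the same chromosome, Srp54a and Srp54c, among which reads could be split differently, and those differed by 0.18 ± 0.17 and 0.01 ± 0.15. Gast, the gastrin precursor, had 3 and 1 reads with AKG and 14 and 9 in the combined libraries. Mir149 lies inside Gpc1 on the same strand and had 3 and 2 reads against 7 and 7. Trbj2-3, a T cell receptor joining segment, was listed at 0 in both AKG libraries and had 2 and 1 reads in the combined libraries. These counts are too small to read as levels.

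Of the 10 lower genes, Shc3 (chromosome 13, 51431041 to 51569419), a neuronal adaptor of receptor tyrosine kinases, had the most reads. It was at 20.4 and 18.9 FPKM with AKG and at 14.4 and 13.2 FPKM in the combined libraries (-0.48 ± 0.10). C1ql4 (chromosome 15, 99084086 to 99087817), a secreted synaptic C1q-like protein, was at 1.73 and 1.76 FPKM against 0.733 and 0.683 (-0.69 ± 0.14). Gbx2 (chromosome 1, 89927956 to 89931179), a homeobox factor of thalamic neurons, was at 12.5 and 13.8 FPKM against 9.60 and 10.2 (-0.38 ± 0.10). In each the 2 groups did not overlap, which the choice by a small p again favours. Wdr63 and Ccdc113, both of motile cilia, differed by -0.66 ± 0.16 and -0.45 ± 0.11, and Mapk15, a kinase that acts in ciliogenesis, by -0.59 ± 0.14. Ighm, the immunoglobulin M heavy chain, was at 6.79 and 7.32 FPKM against 4.56 and 5.07, and Ifi30, a lysosomal thiol reductase of antigen presentation, at 5.20 and 5.42 FPKM against 3.15 and 3.82. The mitochondrial leucine tRNA gene mt-Tl1 differed by -0.50 ± 0.12. Snora20, a small nucleolar RNA inside Tcp1, had 5 and 6 reads with AKG and 3 and 2 in the combined libraries.

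**Figure D2:**
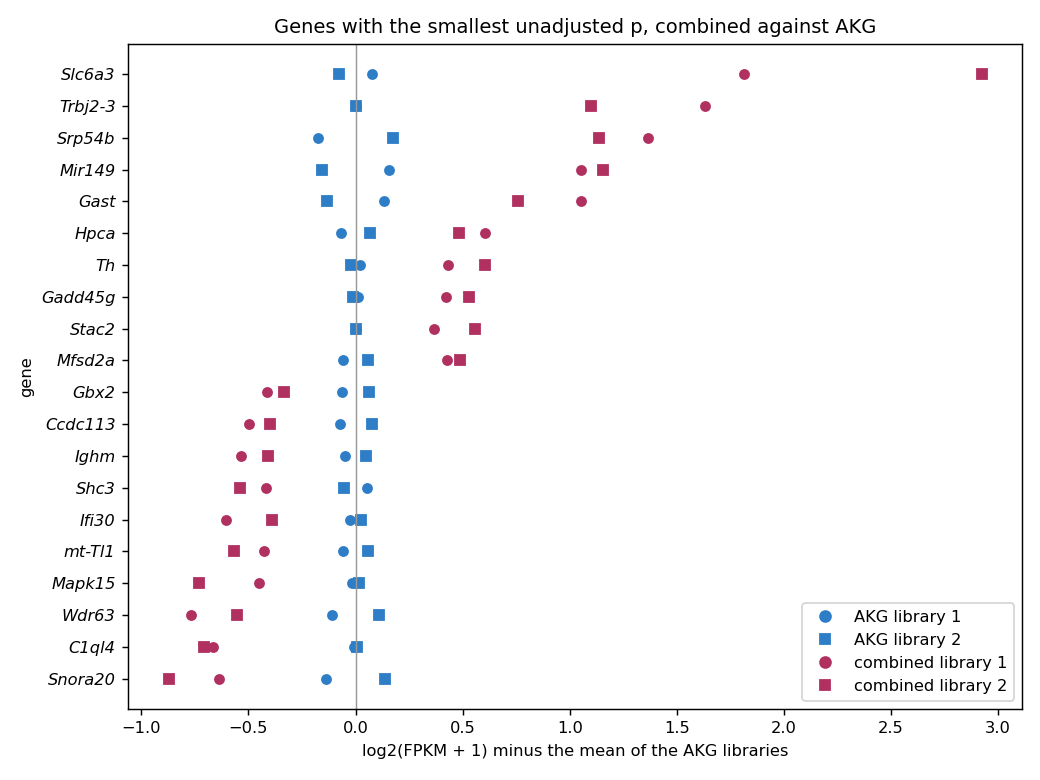
Level of each of the 20 genes with the smallest unadjusted p (vertical axis) in the AKG and combined libraries, as log2(FPKM + 1) minus the mean of the AKG libraries (horizontal axis), with circles for library 1 and squares for library 2. The combined libraries stand to the right of both AKG libraries in the upper 10 genes and to the left in the lower 10, farthest in Slc6a3, and no gene passed the adjusted threshold.

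Neurons of neighbouring regions were on both sides. Of 13 tested thalamus and midbrain excitatory neuron genes, 7 had both combined libraries below both AKG libraries and 1 had them above, with a median of -0.19. Gbx2, picked above for its small p, was 1 of the 7. Shox2, a homeobox factor of thalamic neurons, was at 29.5 and 28.2 FPKM with AKG and at 22.3 and 25.9 in the combined libraries, and Lef1, a Wnt pathway factor of thalamic neurons, at 3.68 and 4.25 FPKM against 3.16 and 3.24. Slc17a6, the vesicular glutamate transporter VGLUT2, was at 85.6 and 80.0 FPKM against 78.2 and 70.3. These levels were lower in both combined libraries, by small steps.

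Of 12 tested striatal projection neuron genes, 4 lay higher in both combined libraries and 0 lower, with a median of 0.22. Penk, the enkephalin precursor, was at 31.9 and 23.7 FPKM against 34.3 and 50.2 (0.58 ± 0.22), and Tac1, the substance P precursor, at 11.3 and 7.83 FPKM against 12.5 and 15.7 (0.53 ± 0.19). Ppp1r1b, the dopamine signalling protein DARPP-32, was at 19.1 and 27.9 FPKM against 13.7 and 52.2, so combined library 2 was the highest and combined library 1 the lowest of the 4. Combined library 2 was also the highest in Slc6a3 and Th, and the part of this in their difference was not tested. Without combined library 2 the median of the striatal list was 0.06, and without combined library 1 it was 0.49. GABA neuron genes had a median of 0.24 over 10 tested genes, 3 of them higher without overlap. Gad1, which makes GABA, was at 38.4 and 32.4 FPKM against 38.8 and 56.1, while Gad2 overlapped, at 53.9 and 41.5 FPKM against 54.3 and 50.2.

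Some hypothalamic neuropeptide genes set AKG library 2 apart rather than the groups. Avp, the vasopressin precursor, was at 425 and 27.5 FPKM with AKG and at 299 and 234 in the combined libraries. Npy, an appetite-stimulating peptide, was at 51.8 and 12.3 FPKM against 53.1 and 52.9. In both genes AKG library 2 alone was low, whereas Hcrt, given above, was highest there among the libraries compared. Without AKG library 2 the list's median was -0.32. Without AKG library 1 the list's median went from 0.18 to 1.13, and Avp, Npy, Pomc and Agrp were among the 8 genes then called higher.

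Most tested genes of the ependyma, the ciliated lining of the ventricles, were at lower values. Of 10 tested motile cilia genes, 7 lay below both AKG libraries in both combined libraries and 1 above, with a median of -0.37. Rsph1, a radial spoke protein of motile cilia, was at 12.6 and 18.2 FPKM with AKG and at 9.86 and 10.8 in the combined libraries (-0.51 ± 0.18), and Rarres2, the chemerin precursor, at 5.99 and 7.36 FPKM against 4.77 and 4.93 (-0.39 ± 0.12). The cilia genes Wdr63, Ccdc113 and Mapk15 above were not on this list. Foxj1, the master regulator of motile cilia, overlapped, at 14.7 and 18.4 FPKM against 13.2 and 15.1. The list members Dnah5, Dnah11, Dnah12, Hydin, Spag16 and Cfap43, under 1 FPKM on average and not tested, overlapped too. Dnah5 was at 0.507 and 0.589 FPKM against 0.609 and 0.286, and Cfap43 at 0.889 and 0.919 FPKM against 0.977 and 0.663.

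Choroid plexus epithelium, which secretes cerebrospinal fluid from the same ventricles, separated the combined libraries from each other. Ttr, transthyretin, was at 1334 and 2466 FPKM in the AKG libraries, at 53.4 in combined library 1 and at 4857 in combined library 2. All 15 tested members overlapped between groups, and the median of -0.67 went to 0.76 without combined library 1 and to -2.16 without combined library 2. The ependymal list did not follow this split, since its median was -0.42 and -0.24 without the same libraries.

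**Figure D3:**
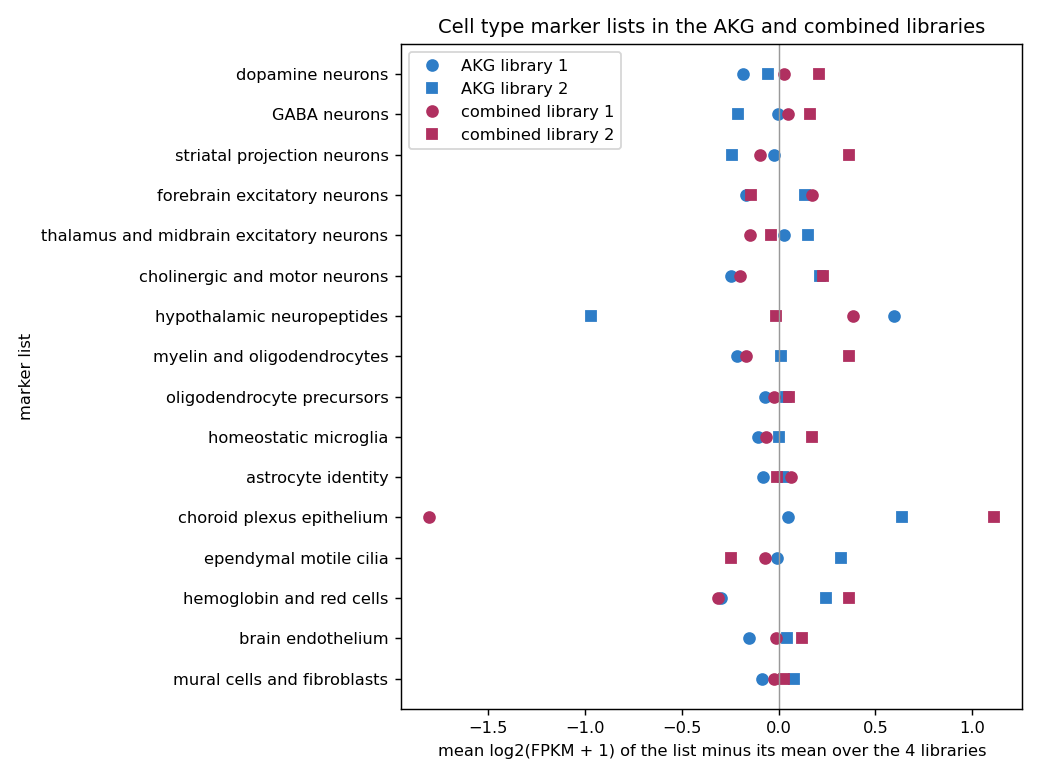
Mean log2(FPKM + 1) of each cell type marker list (vertical axis) in the AKG and combined libraries, less its mean over these 4 libraries (horizontal axis), with circles for library 1 and squares for library 2. In the choroid plexus list combined library 1 is the lowest and combined library 2 the highest, in the hypothalamic list AKG library 2 is alone at the left, and in the ependymal and the thalamus and midbrain lists both combined libraries lie to the left of both AKG libraries.

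Brain endothelial genes were at higher levels in part. Of 16 tested, 5 lay higher in both combined libraries and 0 lower, with a median of 0.08. Besides Mfsd2a these were Slco1a4, an organic anion transporter of the blood-brain barrier (8.75 and 8.49 FPKM against 12.3 and 10.5), the surface antigens Ly6c1 and Ly6a, and Slc2a1, the glucose transporter GLUT1 (51.6 and 55.9 FPKM against 58.0 and 60.1). The endothelial junction and adhesion genes Cldn5, Pecam1 and Cdh5 overlapped between groups. Gfap, the intermediate filament of astrocytes, was at 39.8 and 45.7 FPKM with AKG and at 51.1 and 66.3 in the combined libraries (0.44 ± 0.16). Both combined libraries lay above both AKG libraries. Of 14 tested reactive astrocyte genes 3 lay higher, Gfap, Lcn2 and Fkbp5, and 1 lower, Cd44, with a median of 0.03. Astrocyte identity genes had a median of 0.05.

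Microglia and immune genes mostly overlapped. Aif1, a cytoskeletal protein of microglia, was at 2.44 and 3.31 FPKM against 2.49 and 3.10, and Tyrobp, the adaptor of TREM2, at 19.0 and 21.9 FPKM against 16.1 and 26.9. Cd68, a lysosomal protein of phagocytes, was at 4.49 and 4.27 FPKM against 4.91 and 6.67 (0.32 ± 0.15). Of 14 homeostatic microglia genes 2 lay higher and 0 lower, and of 8 complement genes 1 lay higher, C4b, at 7.14 and 6.59 FPKM against 8.40 and 9.61 (0.35 ± 0.11). The neutrophil genes S100a8 and S100a9 were at 0.704 and 1.45 FPKM against 3.11 and 1.85, and at 1.35 and 2.37 FPKM against 2.76 and 2.89. Ly6g, which defines neutrophils, was listed at 0 in all of these libraries but combined library 2, where it was at 0.119 FPKM. Hemoglobin Hbb-bs, from blood in the tissue, was at 85.2 and 141 FPKM against 110 and 176. Myelin genes had a median of 0.19, but this was -0.04 without combined library 2, in which Mbp was at 811 FPKM against 421 to 524 in the other 3.

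Glucocorticoid-responsive genes had the highest share of upward members among the lists with at least 5 tested genes. Of 12 tested, 7 lay higher in both combined libraries and 1 lower, with a median of 0.28. Plin4, a lipid droplet protein, was at 1.70 and 2.13 FPKM with AKG and at 5.66 and 2.90 in the combined libraries (0.81 ± 0.27). Tsc22d3, the glucocorticoid-induced leucine zipper, was at 23.8 and 25.7 FPKM against 35.8 and 27.9, and Ddit4, an inhibitor of mTOR, at 26.3 and 25.9 FPKM against 36.0 and 29.4. In each of these 3 genes combined library 1 was the higher of the pair. Sgk1, a kinase of ion transport, was at 14.2 and 13.03 FPKM against 28.1 and 14.2, so its groups were barely apart. Without combined library 1 the list's median was 0.12, and without combined library 2 it was 0.47. The exception was Mt2, a metallothionein, at 12.1 and 8.63 FPKM against 7.35 and 4.85.

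Heat shock chaperone and cholesterol synthesis genes lay slightly lower in the combined libraries. Of 20 tested heat shock chaperone genes, 9 had both combined libraries below both AKG libraries and 1 above, with a median of -0.09. Hsph1, an Hsp110 chaperone, was at 47.3 and 50.9 FPKM against 39.9 and 39.1 (-0.31 ± 0.10), and Hsp90aa1 at 319 and 323 FPKM against 293 and 287. Of 20 cholesterol synthesis genes, 6 lay lower and 1 higher, with a median of -0.10. Sqle, squalene epoxidase, was at 15.8 FPKM in both AKG libraries and at 14.2 and 12.9 in the combined libraries, and Idi1, an isomerase of the mevalonate pathway, at 6.67 and 6.42 FPKM against 5.68 and 5.31. Of 26 unfolded protein response genes, 6 lay lower and 2 higher, with a median of -0.02. Sesn2, a stress-induced inhibitor of mTOR, was at 6.04 and 5.86 FPKM against 4.95 and 4.86. In these 5 named genes both combined libraries lay below both AKG libraries.

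Enzymes that make or use AKG, which both groups received, showed no common shift with the vector. Of 30 TCA cycle and AKG metabolism genes, 6 lay higher and 2 lower, with a median of 0.05. Ogdh, the subunit of the complex that consumes AKG in the cycle, was at 58.1 and 56.0 FPKM against 55.4 and 55.6, and Idh1, which makes AKG from isocitrate, at 19.998 and 21.7 FPKM against 21.02 and 19.2. Gpt, an alanine aminotransferase that links AKG and glutamate, was at 5.30 and 4.86 FPKM against 5.77 and 6.58. Of 32 AKG-dependent dioxygenases, 2 lay higher and 6 lower, with a median of -0.03. P4ha2, a collagen prolyl hydroxylase, was at 3.64 and 3.70 FPKM against 3.02 and 3.03, and Egln3, which hydroxylates HIF, at 1.79 and 1.86 FPKM against 2.34 and 2.23. These shares lay on either side of the 11.3% and 11.8% of all genes.

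Autophagy and growth signalling were near the middle of all genes. Of 30 autophagy genes 5 lay higher and 2 lower, with a median of 0.01. Map1lc3b, the autophagosome protein LC3B, was at 28.1 and 32.2 FPKM against 27.9 and 32.8, and Sqstm1, the cargo receptor p62, at 201 and 197 FPKM against 197 and 214. Rheb, the small GTPase that activates mTOR, was at 16.6 and 17.3 FPKM against 17.6 and 17.9, a difference of 0.06 ± 0.09. Of 22 mTOR and AMPK signalling genes 2 lay higher and 1 lower. Of 14 inherited Parkinson's disease genes 1 lay higher and 1 lower, with a median of -0.04.

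Ribosomal and respiratory chain genes shifted with the choice of libraries. Cytosolic ribosomal protein genes had higher means in 74 of 78 cases, with a median of 0.12, and nuclear genes of the respiratory chain in 71 of 76, with a median of 0.08. The medians were -0.05 and -0.10 without combined library 2, 0.03 and -0.03 without AKG library 1, 0.21 and 0.20 without AKG library 2, and 0.29 and 0.28 without combined library 1. In combined library 2 the correlation of gene length with the deviation from the mean of all libraries was -0.17, against 0.10 to 0.47 in the other 3, and the part of this in the 2 lists was not tested. Non-overlapping members numbered 6 upward and 1 downward among the ribosomal genes, and 2 upward among the respiratory genes.

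**Figure D4:**
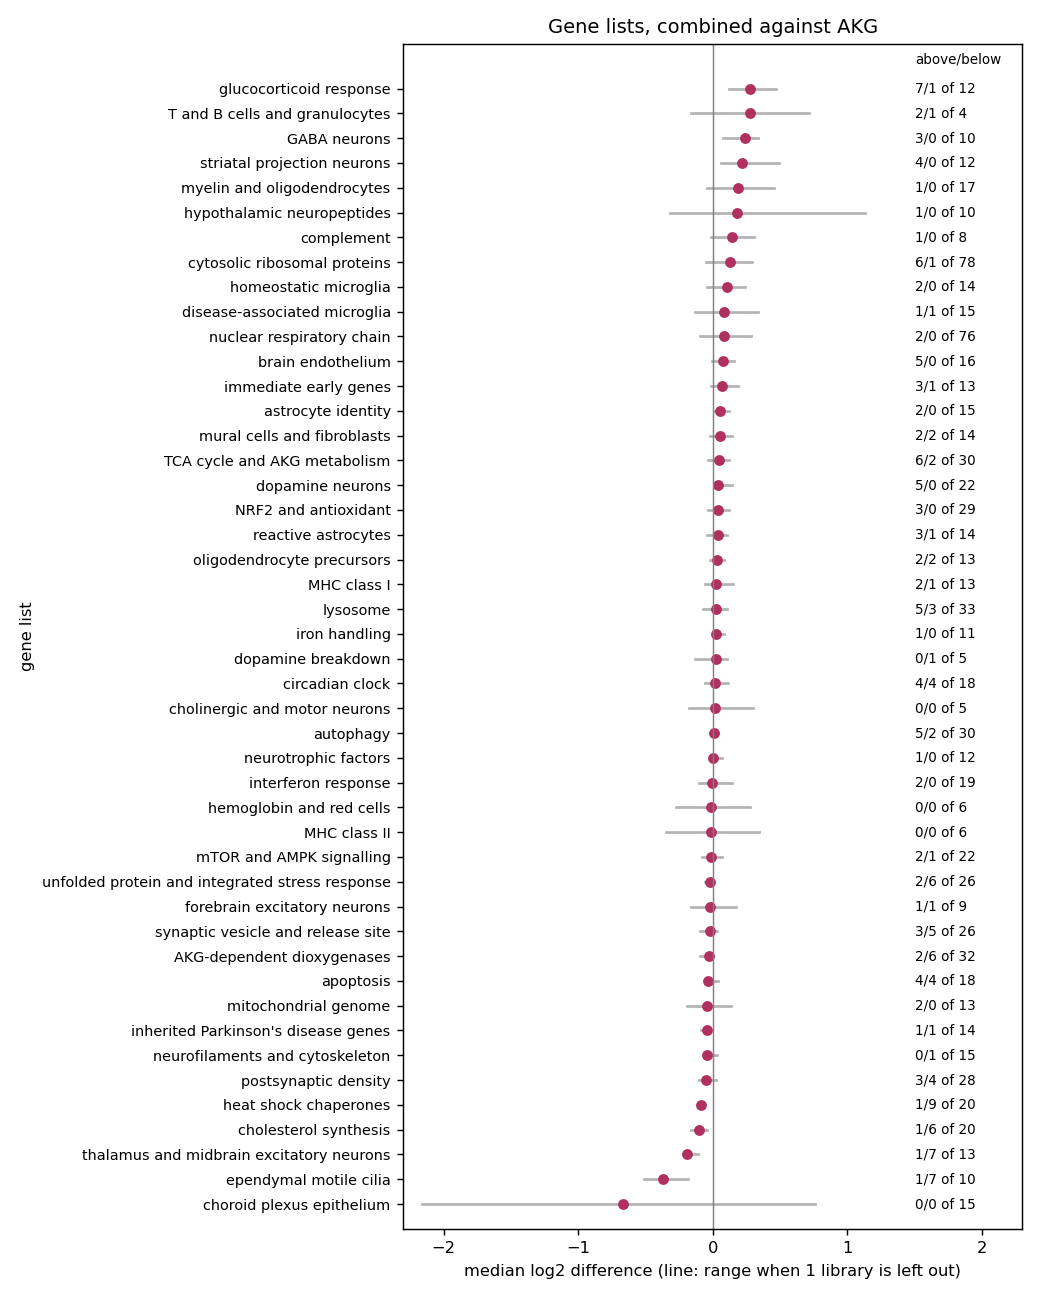
Median difference of each gene list (vertical axis), combined minus AKG on the log2(FPKM + 1) scale (horizontal axis), where a point is the median over tested genes, a line its range when 1 library is left out, and the figures at the right count tested genes with both combined libraries above, or below, both AKG libraries. The glucocorticoid list at the top has 7 of 12 above, the ependymal list near the bottom 7 of 10 below, and the choroid plexus list runs from -2.16 to 0.76.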

How the data were processed

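RNA-seq of mouse substantia nigra was used from 4 groups of 2 libraries. Libraries were made from total RNA with the SMARTer mRNA-seq chemistry, per the labels' protocols. GRCm38 and mm10 are the builds in the submitters' processing notes. The sources used here do not give the aligner, the counting tool or the strand setting. Per the file headers, the values are FPKM as the authors made them, in a single deposited table of 54532 genes with their lengths and coordinates, and 98.3% of the genes shared with GENCODE M21 had the same coordinates there. FPKM times length was a whole multiple of 1 step (within 0.01) for 100% of values, from which reads were recovered.

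The 13716 genes (12326 protein-coding) whose mean over the 8 libraries reached 1 FPKM were tested. With R 4.3.3 and limma 3.58.1, log2(FPKM + 1) of the 4 libraries compared was modelled by 1 mean for each group. Tests were two-sided, from eBayes moderated along the mean-variance trend, and were adjusted over all tested genes by Benjamini-Hochberg at 0.05. It had 2 residual and 3.37 prior degrees of freedom. The contrast of vector effects used all 8 libraries. The scripts were tried on simulated data. The main fit used no count model because the deposited unit is FPKM, and voom on the recovered reads was run as an alternative.

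Named genes were those of smallest unadjusted p, 10 in each direction, without Gm and Rik genes and pseudogenes, up to 4 members of a described list with the smallest p, and a fixed set (Th, Ddc, Slc6a3, Slc18a2, Nr4a2, Gfap, Aif1, Cd68, Tyrobp, Ogdh, Idh1, Map1lc3b, Sqstm1, Rheb, Ttr, Hbb-bs and Fos). Other named genes were chosen after their values were seen. The members, the 48 lists and the rules were chosen with earlier results of these data known. Part of the lists is described in the text, and those with at least 4 tested members are in the plot of list medians. A gene of the fixed set and 1 list are not reported here. Of the list members, those under 1 FPKM on average were not tested.

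Alternatives were quantile normalization, a pseudocount of 0.1, scaling by median of ratios, no filter or a minimum of 5 FPKM, eBayes with no trend, a block for the replicate number, all 8 libraries or the 6 without control, removal of a trend with gene length (spline with 5 degrees of freedom), protein-coding genes only and leaving out each library. Voom on the recovered reads was chosen after seeing the data, as were, for the contrast of vector effects, the block and the omission of vector, AKG or combined libraries. Promoter sequences are RefSeq's. Motifs and figures used matplotlib 3.10.9, numpy 2.4.6 and pandas 2.3.3 under Python 3.11.15.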

Additional observations from a re-analysis of the deposited data

How the results depend on the processing

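With 2 libraries a group, precision is limited by their number more than by depth, and genes with a handful of reads (Mir149, Trbj2-3, Snora20, Gast) by counting too. The 2 count models planned on recovered reads were not run. Calls stayed at 0 in each direction in every alternative run except without AKG library 1 or 2 (0 to 8 genes higher and 0 to 1 lower over the 4 omissions). Genes at an unadjusted p under 0.05 numbered 872 without a filter, 90 at a minimum of 5 FPKM, 156 with all 8 libraries, 153 with voom, and 278 to 912 over the omissions. The cause was not tested, except that the filters change how many genes are tested. Among the 93 genes named, 92 kept their direction in every alternative that keeps the 4 libraries and tests the gene. The exception was Sqstm1 with quantile normalization (-0.010). Whichever library was left out, 72 kept their direction. A gene whose groups do not overlap keeps its sign by that order alone, and many genes were named for a small p. The 72 is thus a description only.

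The replicate number does not pair the samples by the labels. Deviations of same-numbered AKG and combined libraries correlated by 0.34 over genes, with only 2 such pairs. Those of vector and AKG libraries correlated by -0.07, and those of vector and combined libraries by -0.02. The replicate block gave 543 genes at an unadjusted p under 0.05 and no call. In the contrast of vector effects the block gave 577 such genes, and omissions gave 286 to 4564 and 0 to 1369 calls.

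The genes that turned sign gave these ranges when 1 library was left out: Agrp -0.31 to 2.48, Aif1 -0.19 to 0.13, Avp -0.68 to 3.22, Cdh5 -0.025 to 0.13, Cldn5 -0.44 to 0.10, Drd2 -0.22 to 0.39, Fos -0.51 to 0.19, Gad2 -0.046 to 0.32, Gpc1 -0.23 to 0.067, Hbb-bs -0.013 to 0.71, Hcrt -0.43 to 0.045, Idh1 -0.11 to 0.014, Map1lc3b -0.10 to 0.12, Nr4a2 -0.72 to 0.38, Pomc -0.79 to 2.15, Ppp1r1b -0.71 to 1.14, Ret -0.0093 to 0.13, Sqstm1 -0.015 to 0.10, Srp54c -0.15 to 0.17, Ttr -5.06 to 1.42, and Tyrobp -0.32 to 0.38.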

Other observations

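Genes of the circadian clock were split between directions. Of 18 tested, 4 lay higher in both combined libraries and 4 lower, with a median of 0.02. Ciart, a circadian repressor, was at 5.09 and 5.72 FPKM with AKG and at 6.76 and 6.90 in the combined libraries, and Nr1d1, the circadian repressor REV-ERBα, at 36.2 and 28.3 FPKM against 27.2 and 26.2. Of 13 immediate early genes, 3 lay higher and 1 lower. Dusp1, a phosphatase that ends MAP kinase signalling, was at 7.81 and 6.87 FPKM against 8.87 and 8.71, whereas Fos overlapped, at 2.58 and 2.41 FPKM against 2.98 and 1.45.

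Synaptic genes also lay on both sides. Of 26 tested genes of synaptic vesicles and release sites, 3 lay higher and 5 lower. Syt2, a fast calcium sensor of release, was at 7.60 and 7.86 FPKM against 9.29 and 11.5, and Cplx2, which clamps vesicle fusion, at 52.7 and 56.9 FPKM against 71.5 and 64.0. Of 28 postsynaptic density genes, 3 lay higher and 4 lower. Shank3, a scaffold of excitatory synapses, was at 40.4 and 41.6 FPKM against 32.7 and 35.1. In Syt2, Cplx2 and Shank3 the groups did not overlap, as in 23.1% of all genes in either direction.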
